A study of Homo sapiens with 2 samples.

Results

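The 43 collagen genes described here are those whose symbol is COL, a number, A and a number, out of 62704 genes counted in each of 2 libraries of human brain organoids; 1 further gene of that pattern was not analysed here. The rule that took them used names alone, although the family was chosen with earlier results of these data known. All 43 had counts in both libraries. The organoids were grown from H9, an established human embryonic stem cell line. The first library held single cells of control organoids (CO, made with a commercial kit) at days 45, 55 and 70, of dissociated organoids (DISS, taken apart at day 45 and reaggregated) at days 48, 55 and 70, and of constrained organoids (CONS, freed of Matrigel at day 13 and embedded in 3% low-gelling agarose) at day 55. The second held nuclei of CO at day 45, isolated both from intact organoids and from suspended cells. All barcodes of a library carry 1 sample name, so barcodes could not be assigned to a condition, a day or an organoid, and CO, DISS and CONS were not compared. By the study's methods, organoids of several batches were pooled, and these could not be told apart either. Each library was therefore used as 1 sample without replicates, and no test was made. Intervals in brackets are 95% exact intervals that cover counting error only. The spread over first-round barcoding wells is given as a range and median over wells. Which sample or condition a well held is not labelled, and several wells may share a sample. Counts of wells are therefore not counts of independent samples. Matrigel, in which organoids are embedded, is itself rich in basement membrane protein of mouse origin, and RNA counts say nothing about that protein.

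Collagens are trimers of chains that wind around each other in a triple helix. Type IV chains assemble into the sheet-like network of basement membranes, fibrillar chains (types I, II, III, V, XI, XXIV and XXVII) form fibrils, fibril-associated chains decorate them, and other classes form beaded filaments, short-chain networks or stay in the cell membrane. In the developing brain, basement membranes lie under the pial surface, where radial glia attach their endfeet, around vessels, and beneath the epithelium of the choroid plexus, which secretes cerebrospinal fluid. Fibrillar collagens of the brain are known mainly from meningeal and perivascular fibroblasts.

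Barcodes entered if they had over 500 genes, over 1000 transcripts and a mitochondrial share of 20% or below. This left 20178 cells with 157306492 transcripts and a median of 2615 per cell, and 14228 nuclei with 72162726 transcripts and a median of 3890. The deepest 202 cells held 20.3% of the transcripts of the cells. The 48 wells of the cells held 39 to 2606 kept barcodes and the 12 wells of the nuclei 567 to 2371. Between the libraries, 99 kept barcode names were shared. Types were named only from marker genes, after clustering without any collagen gene. Of the 23 clusters of the cells and 19 of the nuclei, many could not be named. The unnamed clusters held a large part of the barcodes of each library, so results by named type leave that part out. Levels are counts per 1000000 kept transcripts (CPM), and a gene was called higher or lower in a type at a fold of 2 against all other kept barcodes of the library, with at least 20 counts seen or expected in the type. Unnamed clusters stayed among the other barcodes of every fold, so a fold can be measured partly against barcodes of a like kind. Among the nuclei, unnamed cluster 10 (1193 barcodes, 578 CPM of collagen) had the highest excitatory neuron marker sum, 2248 CPM. Unnamed cluster 17 (506 barcodes) was led by EOMES, an intermediate progenitor marker. Unnamed cluster 5 (1406 barcodes) was led by FGFR3, CELSR1 and TTYH1. FGFR3 and TTYH1 were also among the leading genes of a radial glia-like cluster of the cells. Unnamed clusters 1, 6 and 8 of the cells held 2209, 2305 and 1969 barcodes. Unnamed cluster 3 of the cells held only 588, with a median of 23595 transcripts, but 48217 of the 299579 collagen counts of the cells (1769 CPM).

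Of these genes, 6 are type IV chains, and the genome places them in 3 pairs that are read outward from a shared start region. COL4A1 and COL4A2, whose products form the most widespread basement membrane trimer, lie on chromosome 13 at 110148963 to 110307157 (minus strand) and 110305812 to 110513209 (plus strand) of GRCh38. COL4A3 and COL4A4 lie on chromosome 2, at 227164624 to 227314792 and 227002714 to 227164453, and COL4A5 and COL4A6 on the X chromosome, at 108439838 to 108697545 and 108155607 to 108439497. The RefSeq start sites of COL4A1 and COL4A2 are 126 bases apart, those of COL4A4 and COL4A3 418, and the nearer start of COL4A6 379 from that of COL4A5 (the other 1415). The start regions are shown because the chains of a pair had similar patterns over types, as described further on. All runs are RefSeq sequence on GRCh38, 5′ to 3′ along the strand named, and capitals mark GGGCGG (a GC box), CCAAT or TATAAA, each on either strand.
COL4A1 and COL4A2, whole region between both starts, chr13:110307158-110307283, plus strand: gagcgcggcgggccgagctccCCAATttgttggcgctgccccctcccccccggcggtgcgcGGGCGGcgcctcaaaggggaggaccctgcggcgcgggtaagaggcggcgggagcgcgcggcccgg
COL4A5, 250 bases before its start, chrX:108439588-108439837, plus strand: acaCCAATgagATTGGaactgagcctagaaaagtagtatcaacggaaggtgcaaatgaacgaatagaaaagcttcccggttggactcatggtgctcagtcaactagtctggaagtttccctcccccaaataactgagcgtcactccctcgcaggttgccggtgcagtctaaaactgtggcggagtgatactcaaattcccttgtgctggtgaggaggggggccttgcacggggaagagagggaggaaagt
COL4A6, 250 bases before its nearer start, chrX:108439459-108439708, minus strand: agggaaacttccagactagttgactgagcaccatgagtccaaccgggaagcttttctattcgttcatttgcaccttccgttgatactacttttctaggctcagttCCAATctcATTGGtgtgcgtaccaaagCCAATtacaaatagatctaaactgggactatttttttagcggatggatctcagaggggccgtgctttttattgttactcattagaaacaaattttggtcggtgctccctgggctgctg
COL4A3, 250 bases before its start, chr2:227164374-227164623, plus strand: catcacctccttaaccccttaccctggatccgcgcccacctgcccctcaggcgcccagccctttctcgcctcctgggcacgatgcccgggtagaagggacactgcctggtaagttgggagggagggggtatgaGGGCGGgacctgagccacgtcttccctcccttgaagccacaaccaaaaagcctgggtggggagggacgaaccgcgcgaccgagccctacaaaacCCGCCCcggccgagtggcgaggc
The region between COL4A1 and COL4A2 had a GC content of 80.2% and held 1 GC box and 1 CCAAT. The COL4A5 window (51.2% GC) held 2 CCAAT and no GC box, and the COL4A6 window, which overlaps it in part, held 3 CCAAT. The COL4A3 window held 2 GC boxes and no CCAAT, and none of these windows held TATAAA. Of 35116 RefSeq promoter windows of 250 bases, 42.6% held GGGCGG, 32.0% CCAAT and 10.7% TATAAA on either strand. These matches describe the letters only.

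The type IV class held the largest part of the collagen counts. Summed over the 43 genes, the cells held 299579 collagen counts or 1904 CPM (1898 to 1911) and the nuclei 179967 or 2494 CPM (2482 to 2505). Of these levels, 1055 CPM in the cells and 1602 CPM in the nuclei were type IV, 403 and 501 fibrillar, and 178 and 143 fibril-associated. COL4A5, a chain of specialized basement membranes, had the most counts, at 535 CPM (531 to 538) in the cells and 848 CPM (842 to 855) in the nuclei. Over the 48 wells of the cells its level ran from 217 through a median of 541 to 1015 CPM, and over the 12 wells of the nuclei from 777 through 848 to 964 CPM. Its partner COL4A6 followed with 330 CPM in the cells (wells 142, median 299, to 679) and 520 CPM in the nuclei (wells 448, median 520, to 599). The ranges of COL4A5 and COL4A6 over wells overlapped in the cells and did not overlap in the nuclei. Barcodes of 10 to 100 transcripts, which are taken to hold mostly free RNA, had 2012 CPM of summed collagen in the cells and 2433 CPM in the nuclei. A count in a single barcode was therefore not read as expression by that cell.

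COL11A1, a chain that sets the diameter of fibrils, had the next most counts, with 222 CPM in the cells (wells 67.1, median 202, to 362) and 301 CPM in the nuclei (wells 248, median 298, to 332). COL4A2 followed with 145 CPM (wells 27.8, median 133, to 306) and 180 CPM (wells 131, median 175, to 227). In the nuclei, the well ranges of COL11A1 and COL4A2 did not overlap, while in the cells they did. The next members by counts in the cells were COL19A1 (71.3 CPM), COL18A1 (65.3), COL5A1 (54.7), COL27A1 (51.4), COL6A1 (50.5) and COL26A1 (39.6), whose well ranges overlapped throughout. The 43 members spanned 535 to 1.29 CPM in the cells, the lowest being COL10A1, and 848 to 0.319 CPM in the nuclei, the lowest being COL17A1. Members of low level have wide counting intervals within a type.

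Levels were compared between genes per length. Per kilobase of exon, the order in the cells was COL4A5 (45.1 CPM per kb), COL4A6 (35.5), COL11A1 (24.4), COL26A1 (12.8) and COL6A1 (9.13). The nuclei began with the same 4 genes, at 71.5, 56.0, 33.1 and 11.7 CPM per kb, followed by COL18A1 at 10.0. Per kilobase of gene span, which would apply if intronic reads were counted, COL6A1, a chain of beaded filaments with a span of only 23.3 kb, led the cells at 2.17 CPM per kb against 2.08 for COL4A5. In the nuclei COL4A5 led at 3.29 CPM per kb and COL6A1 was second at 1.89. Whether intronic reads or strand were used in counting is not given in the sources used here. COL4A1 and COL4A2 overlap each other at their starts, and COL19A1, COL18A1, COL10A1 and COL4A3 overlap a gene on the other strand (LMBRD1, SLC19A1, NT5DC1 and MFF-DT), so their counts may hold reads of that gene. Those genes had 10839, 5615, 5843 and 1509 counts in the cells and 5341, 2701, 3591 and 535 in the nuclei. COL10A1 itself had only 203 and 85 counts, and COL4A3 1121 and 491. The same limit holds for COL1A2, COL16A1, COL9A1 and COL1A1, which overlap long noncoding RNAs of the other strand with 322, 211, 107 and 64 counts in the cells and 58, 43, 30 and 3 in the nuclei.

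**Figure D1:**
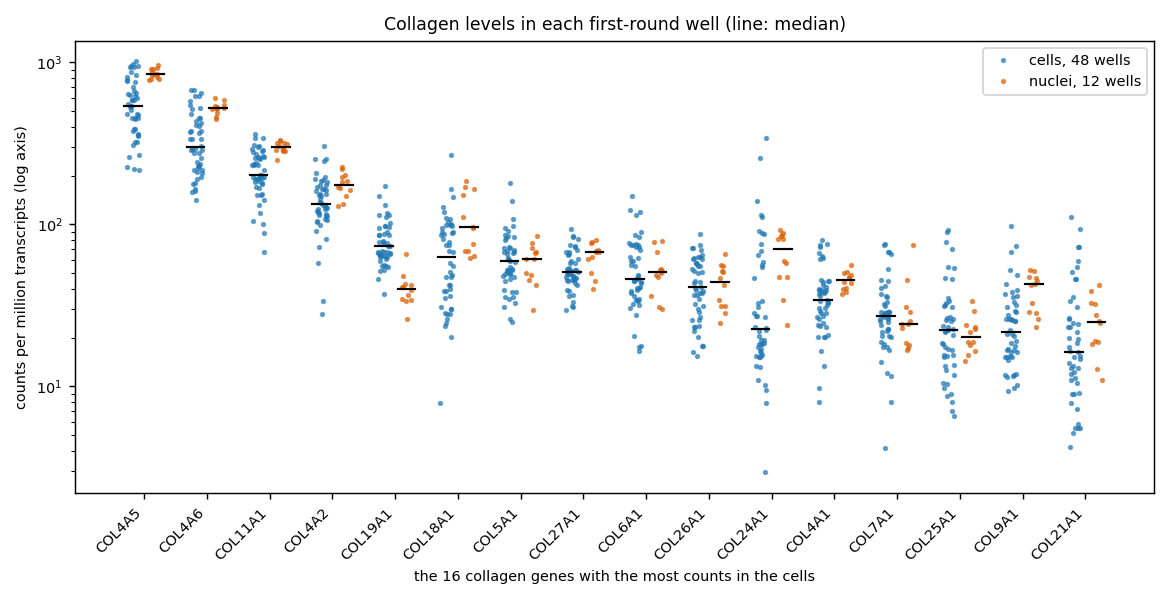
Level of the 16 collagen genes with the most counts in the cells, in CPM on a log axis, with 1 point for each first-round well (48 of the cells in blue, 12 of the nuclei in orange) and a line at the median. COL4A5 and COL4A6 are at the top in both libraries, and COL24A1 in the cells spreads from 2.94 to 341.

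Wells differed widely for COL24A1, a fibrillar chain. In the cells it ran from 2.94 through a median of 22.7 to 341 CPM, and in the nuclei from 23.9 through 70.0 to 92.0 CPM. COL18A1, whose product carries the endostatin domain, ran from 7.85 through 62.5 to 269 CPM in the cells and from 62.3 through 95.7 to 184 CPM in the nuclei. COL21A1, a fibril-associated chain, ran from 4.25 through 16.4 to 112 CPM in the cells and from 11 through 24.9 to 41.9 CPM in the nuclei. The plot of levels by well shows these wide ranges beside the narrower ones of COL4A5 and COL11A1. Wells differed in their mix of types and their samples and conditions are unknown, and the part of either was not tested.

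By type, summed collagen was above the library level in choroid plexus-like, radial glia-like and dividing barcodes of both libraries and below it in excitatory neuron-like ones. Among the cells it was 2756 CPM in 606 choroid plexus-like barcodes, 2467 in 99 pigment cell barcodes, 2385 in 2561 radial glia-like, 2383 in 3212 dividing, 1526 in 1447 glycolytic-like, 1247 in 1231 intermediate progenitor-like and 836 in 1672 excitatory neuron-like barcodes. Among the nuclei it was 4029 CPM in 356 choroid plexus-like barcodes, 3822 in 2701 radial glia-like, 3239 in 1898 dividing, 1007 in 73 Cajal-Retzius-like, 873 in 674 glycolytic-like and 654 in 1341 excitatory neuron-like barcodes. The order of choroid plexus, radial glia, dividing and neuron was the same in both libraries, although the radial glia and dividing cells did not differ beyond counting error. Unnamed cluster 5 of the nuclei, led by FGFR3, stood at 3599 CPM, above the dividing nuclei. A pair of unnamed clusters led by RSPO2 and LMX1A, genes of the cortical hem that borders the choroid plexus, were also high, with 3042 CPM in cluster 4 of the cells and 3588 in cluster 12 of the nuclei. The naming rule left both unnamed. Choroid plexus markers summed to 11208 and 11218 CPM in them, mostly HTR2C (9011 and 10425), against 2110 and 2634 in all barcodes. Cortical hem markers summed to 1530 and 2068 CPM, against 234 and 297.

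**Figure D2:**
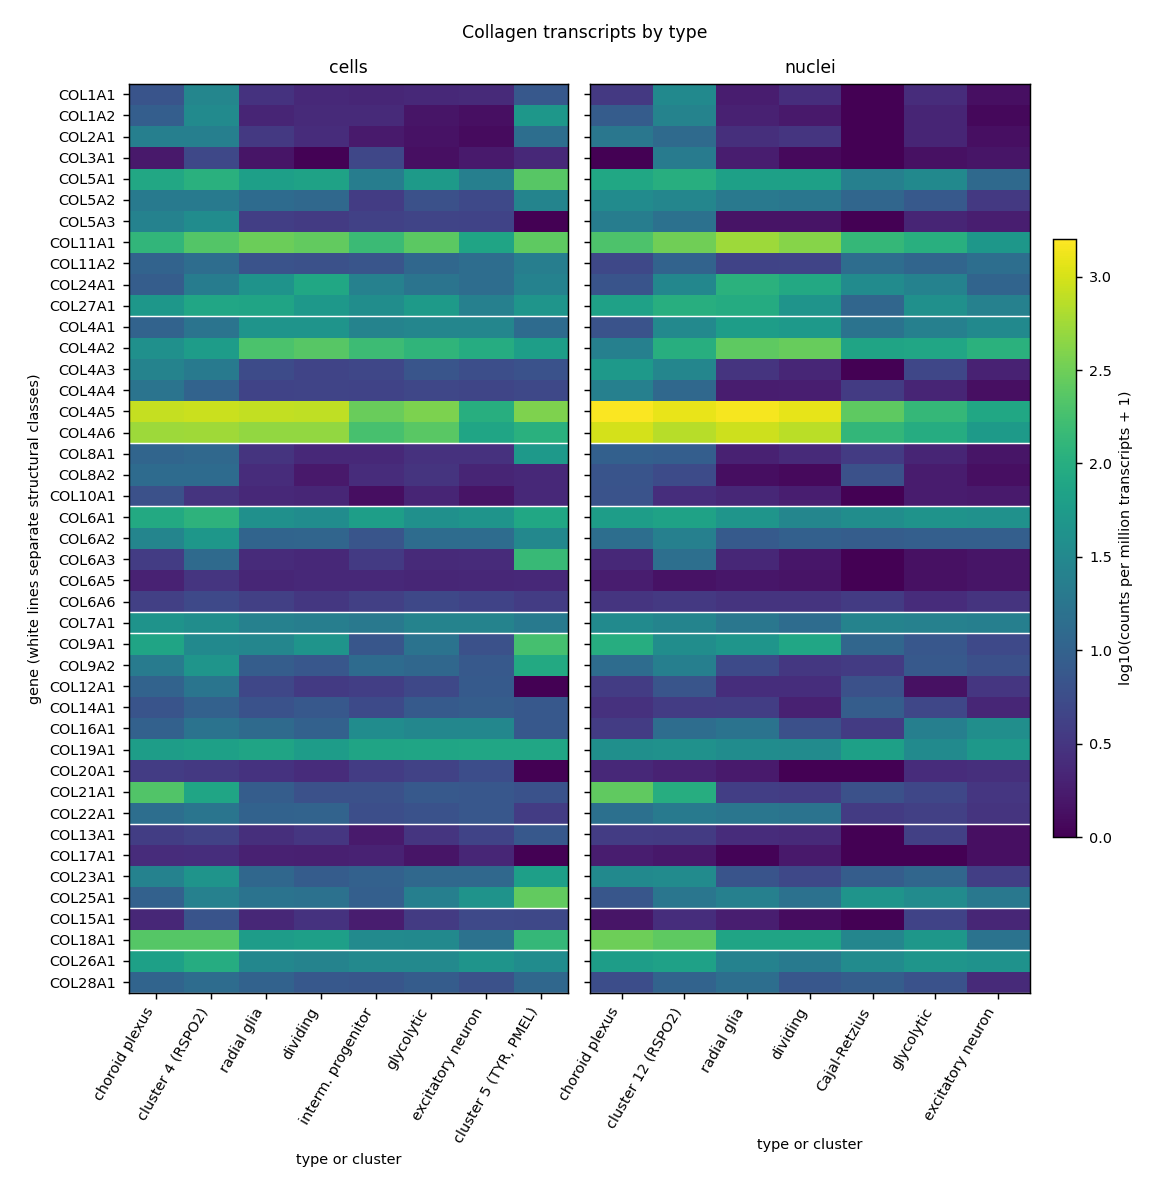
Level of all 43 collagen genes by type, as log10 of CPM plus 1, for cells (left) and nuclei (right), with white lines between structural classes. COL4A5 and COL4A6 are bright in choroid plexus-like, radial glia-like and dividing barcodes and dim in excitatory neuron-like ones, and COL21A1 and COL18A1 stand out in choroid plexus-like barcodes and in the RSPO2-led clusters.

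Collagen genes of several classes were higher in the choroid plexus-like barcodes. In the cells, 12 of the 40 members with enough counts were higher and 6 lower, against 12.6% and 12.3% of all genes with enough counts, and in the nuclei 14 of 32 were higher and 5 lower, against 15.1% and 19.6%. Of these tested members, 2 in the cells and 8 in the nuclei passed the count minimum only through their own counts in the type, so they could enter only by being high. Among genes with at least 20 counts expected from the other barcodes, 10 of 38 members were higher in the cells and 6 of 24 in the nuclei, with 9.28% and 9.16% of all such genes. At Leiden resolution 0.5 the type held 1692 cells and 1286 nuclei, against 606 and 356 at the resolution used throughout, so it was a wider group. The RSPO2-led clusters 4 of the cells and 12 of the nuclei held 986 and 922 barcodes, and whether these entered the wider group was not tested. In the wider group 21 of 43 members were higher and 3 lower in the cells, with 12.6% and 7.29% of all tested genes. In the nuclei 19 of 40 were higher and 3 lower, with 13.2% and 10.2%. At the resolution used throughout, 11 of the 32 members with enough counts in both libraries were higher in both, with 11.4% of all such genes, and 5 lower in both, with 11%. Of these 11, 7 had enough counts in the nuclei only by being high there. Among genes with at least 20 counts expected in both libraries, 4 of 24 members were higher in both (COL21A1, COL18A1, COL9A1 and COL5A2), with 6.88% of all such genes, and 5 lower in both, with 12%. The RSPO2-led clusters had more members higher than the choroid plexus-like barcodes. In cluster 4 of the cells 19 of 42 were higher and 2 lower, with 10.1% and 5.54% of all genes. In cluster 12 of the nuclei 18 of 35 were higher and 0 lower, with 8.47% and 5.32%. Among genes with at least 20 counts expected there, 18 of 40 and 9 of 26 members were higher, with 7.67% and 5.56% of all such genes. Of the 2 choroid plexus-like clusters of the cells, cluster 15 was led by genes of cilia (CROCC2, DNAAF1, TEKT1), as was that of the nuclei, and cluster 16 by TMEM72 and SLC17A8. Cluster 16 came to 91.9% from 1 well, and without it 13 of 40 members were higher in the cells and 6 lower, with 14.3% and 14.7% of all tested genes. The median mitochondrial share was 8.82% in cluster 15 and 3.18% in cluster 16, against 2.45% over all cells, and 0.0290% in the choroid plexus-like nuclei against 0.0863% over all nuclei. Markers of several other cell types were also above the library level there. The 9 markers of fibroblasts or mesenchyme summed to 198 CPM in the cells (8 with counts, FOXD1 at 0) and 216 CPM in the nuclei (5 with counts, DCN, LUM, FOXC1 and FOXD1 at 0), against 44.4 and 40.6 CPM in all barcodes, with PDGFRA the highest. The 7 endothelial markers summed to 114 and 64.5 CPM, against 31.9 and 10.5, mostly KDR. The 7 pigment epithelium or retina markers summed to 404 and 735 CPM, against 79.3 and 116, mostly MITF. The 8 cortical hem markers summed to 489 and 783 CPM, against 234 and 297, mostly LMX1A. The 6 pericyte markers summed to 171 and 185 CPM, against 117 and 138, and the 5 microglia markers to 33.7 and 31.1 CPM, against 9.12 and 5.50, with AIF1 at 0 in both. The part of such cells and of the mitochondrial share in the collagen levels was not tested.

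COL21A1 had the largest fold of these. In the cells it stood at 216 CPM in choroid plexus-like barcodes and 13.8 in all others, 15.6-fold higher (14.6 to 16.7). Within the 9 wells that held at least 20 such barcodes its level ran from 110 through a median of 211 to 292 CPM, above the other barcodes of the same well in 9 of 9. In the nuclei it stood at 259 CPM against 12.9, 20.1-fold higher (18.3 to 22.0), with 119, a median of 280, and 366 CPM over 6 wells and above the rest in 6 of 6. After thinning each barcode to 1000 transcripts, 20.1% of choroid plexus-like cells (17.01 to 23.5) held a COL21A1 count, compared with 1.02% of excitatory neuron-like cells (0.593 to 1.62), at median depths of 4907 and 7033 transcripts before thinning. Without thinning the shares were 59.6% and 5.62%. In the nuclei the thinned shares were 21.1% and 0.373%, at median depths of 9615 and 3725, and the unthinned shares 70.8% and 0.969%.

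Other members higher in both libraries with at least 20 counts expected in each were COL18A1, COL9A1 and COL5A2. COL18A1, at home in basement membranes, was 4.01-fold higher in the cells (228 against 56.9 CPM) and 4.24-fold in the nuclei (308 against 72.5), in 9 of 9 and 6 of 6 wells. COL9A1, which lies on type II fibrils, was 3.31- and 2.87-fold higher, at 72.6 and 98.3 CPM. COL5A2, which regulates fibril assembly, was 2.01- and 2.36-fold higher. The folds of the next 5 genes are a description in the nuclei, where they had enough counts only through this type. COL2A1, the main fibrillar chain of cartilage and also of the vitreous, had folds of 7.03 and 7.99, at 23.3 and 17.5 CPM. COL5A3, a further chain of fibril assembly, had 4.38 and 10.1. The short-chain network genes COL8A1 (2.98 and 4.69), COL8A2 (4.88 and 7.68) and COL10A1 (4.76 and 5.96) stood at 12.1 CPM or less, and for COL8A2 and COL10A1 the same limit held in the cells. The part of NT5DC1, which overlaps COL10A1, in its counts was not tested. COL6A2 was called in the cells only, at 2.00-fold, with 1.54-fold in the nuclei. COL23A1, COL1A2 and COL9A2 were called in the nuclei only, at 3.13-, 2.52- and 2.24-fold, and their folds in the cells were 1.70, 1.97 and 1.74. Of these, COL1A2 had enough counts in the nuclei only through this type. A call in 1 library is not a difference between the libraries, which was not tested. Most of these genes were not particular to the choroid plexus-like barcodes. In the RSPO2-led cluster 4 of the cells the folds were 4.14 for COL18A1, 2.02 for COL5A2, 7.86 for COL2A1 and 7.55 for COL5A3. There COL8A1 had 3.54 and COL8A2 5.33. In cluster 12 of the nuclei COL18A1 had 3.74 and COL5A2 2.01. COL21A1 had 3.69 and 5.36 in these clusters, and COL9A1 and COL10A1 were not called higher in either.

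**Figure D3:**
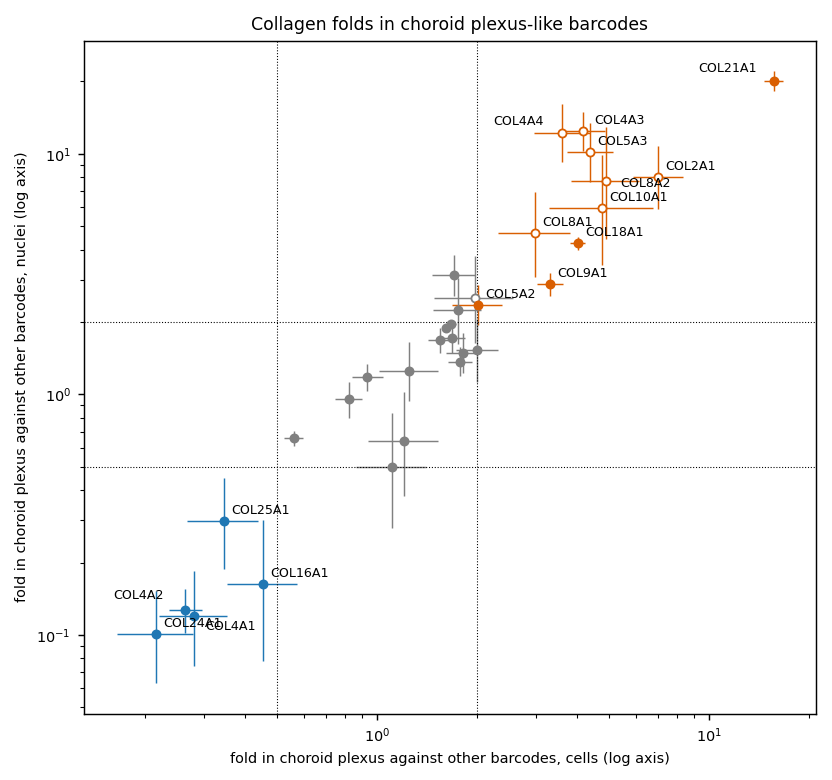
Fold of 32 collagen genes in choroid plexus-like barcodes against all other kept barcodes, cells on the horizontal and nuclei on the vertical axis (both log axes), with 95% counting intervals and dotted lines at a fold of 2 up and down. COL21A1 has the highest folds, at 15.6 and 20.1, genes higher in both libraries are orange and the 5 lower in both, which include COL4A1 and COL4A2, blue, and the 8 open points (7 of the 11 orange ones) had under 20 counts expected in 1 or both libraries, so that they could enter only by being high.

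The 3 type IV pairs had 3 different patterns. COL4A1 was lower in choroid plexus-like barcodes, at 9.47 CPM in the cells (0.280 of the others) and 5.58 CPM in the nuclei (0.120 of the others). COL4A2 was lower there as well, at 39.8 CPM (0.264) and 23.9 CPM (0.127), and it was below the other barcodes of the same well in 9 of 9 wells of the cells and 6 of 6 of the nuclei. Their highest levels among named types were in radial glia-like and dividing barcodes, with COL4A2 at 196 and 233 CPM in the cells and 253 and 286 CPM in the nuclei.

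COL4A3 and COL4A4, the chains best known from kidney, inner ear and eye, stood above the other barcodes there. COL4A3 stood at 25.7 CPM in choroid plexus-like cells (4.16-fold higher) and 52.8 CPM in nuclei (12.4-fold higher). COL4A4 stood at 16.2 CPM (3.60-fold) and 23.6 CPM (12.2-fold), and both genes were above the rest in 9 of 9 wells of the cells and 6 of 6 of the nuclei. In the nuclei both genes had enough counts only through this type, so those folds are a description. The part of MFF-DT, which overlaps COL4A3, in its counts was not tested. The RSPO2-led clusters were above the rest as well, with COL4A3 at 19.9 CPM (3.197-fold) and COL4A4 at 9.31 CPM (1.95-fold) in cluster 4 of the cells and 28.1 CPM (6.07-fold) and 10.99 CPM (4.86-fold, where COL4A4 again had enough counts only through its level there) in cluster 12 of the nuclei. Unnamed cluster 10 of the cells had 21.9 CPM (3.34-fold) and 18.8 CPM (4.16-fold). In radial glia-like barcodes the pair had 4.34 and 3.41 CPM in the cells and 2.05 and 0.788 CPM in the nuclei. COL4A5 and COL4A6 were high in choroid plexus-like, radial glia-like and dividing barcodes alike and low in excitatory neuron-like ones. In intermediate progenitor-like cells the sum of all type IV chains was 662 CPM, below the 1055 CPM of all cells. In the cells, COL4A5 had 834 CPM in choroid plexus-like, 794 in radial glia-like, 788 in dividing and 102 in excitatory neuron-like barcodes. In the nuclei the same levels were 1535, 1430, 1209 and 80.7 CPM. The excitatory neuron-like level of COL4A5 was below the other barcodes of its well in 23 of 23 wells of the cells and 12 of 12 of the nuclei.

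**Figure D4:**
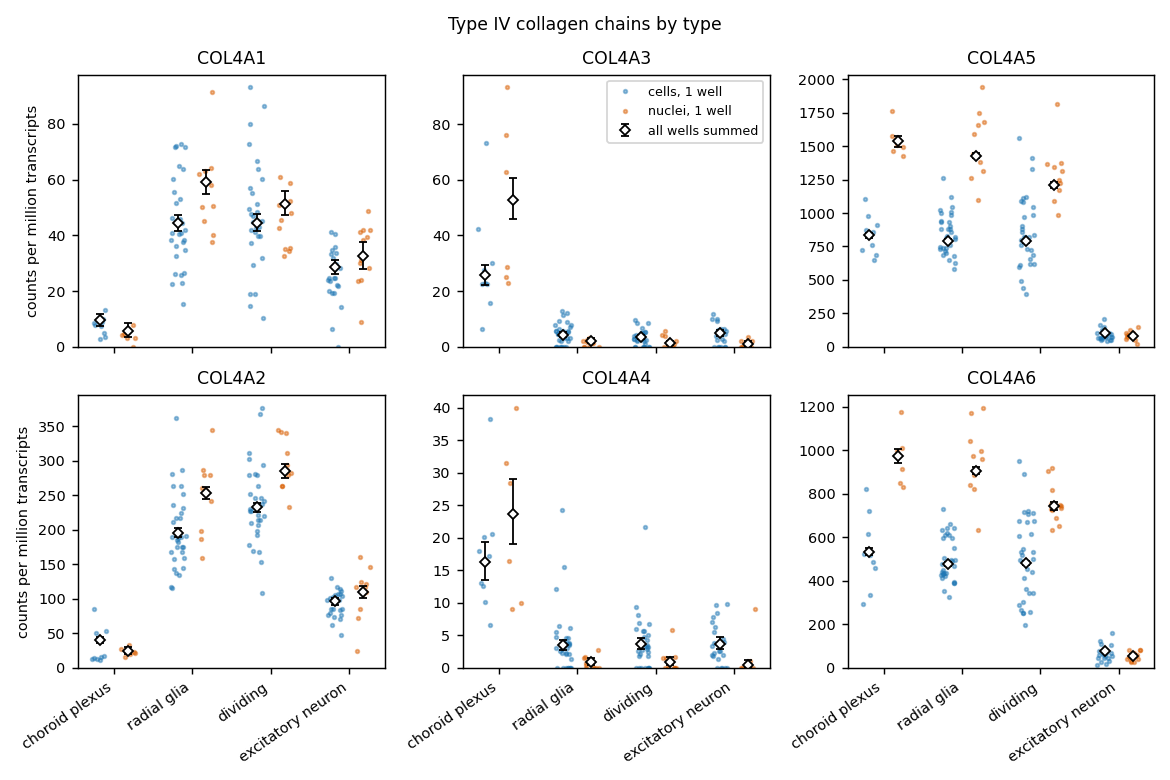
Level of the 6 type IV chains in CPM (vertical axes start at 0 and differ) in 4 types, with 1 point for each well with at least 20 barcodes of the type (cells blue, nuclei orange) and a diamond for all wells summed with its 95% counting interval. Each column holds 1 gene pair: COL4A1 and COL4A2 are low in choroid plexus-like barcodes, COL4A3 and COL4A4 are high there alone among the 4 types, and COL4A5 and COL4A6 are low in excitatory neuron-like barcodes.

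COL4A5 exceeded COL4A6 in every well on the count scale. The ratio was 1.62 (1.61 to 1.64) in the cells and 1.63 (1.61 to 1.65) in the nuclei, with 1.24, a median of 1.59, and 2.58 over 48 wells and 1.42, 1.68 and 1.81 over 12 wells, and by type it ran in the cells from 1.35 in excitatory neuron-like to 3.52 in pigment cell barcodes. COL4A2 exceeded COL4A1 by 4.46 times in the cells and 4.07 times in the nuclei on the count scale, and by 3.40 and 3.10 times per kilobase of exon. Type IV trimers of these chains hold more of the COL4A1 product than of the COL4A2 product, as is known from the protein, and the counts went the other way. COL4A3 over COL4A4 was 1.40 in the cells and 2.22 in the nuclei, COL6A1 over COL6A2 3.47 and 4.96, and COL5A1 over COL5A2 5.41 and 3.21. COL1A1 over COL1A2 was 1.07 (0.958 to 1.19) and 1.18 (0.985 to 1.41), and without the barcodes rich in these chains, described further on, 0.966 (0.861 to 1.08) and 0.70 (0.530 to 0.922). Over 8 wells of the cells with enough counts that ratio ran from 0.240 through a median of 0.652 to 2.92, and by type from 0.139 in pigment cell barcodes to 2.21 in cluster 10.

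In progenitor barcodes few members were higher, as were few of all genes. In the radial glia-like cells 0 of 43 members were higher, with 0.421% of all genes, and 9 were lower, with 6.84%. In the radial glia-like nuclei 4 of 38 were higher, with 4.71%, and 12 lower, with 10.9%. These 4 were COL24A1 (110 against 43.4 CPM, 2.54-fold), COL28A1 (2.19-fold), COL11A1 (535 against 251 CPM, 2.13-fold) and COL4A6 (905 against 438 CPM, 2.07-fold). COL24A1, COL11A1 and COL4A6 were above the rest in 10 of 10 wells, and COL28A1, a beaded filament-like chain known from peripheral nerve, in 9 of 10. The folds of these genes in radial glia-like cells were 1.28, 1.16, 1.45 and 1.55 in the order given. Unnamed cluster 5 of the nuclei, led by FGFR3, was among the other barcodes of the folds in nuclei. Its fibrillar sum was 822 CPM, against 827 in the radial glia-like nuclei, and its type IV sum 2349 against 2650. Clusters 3, 4 and 7, which made up the radial glia-like nuclei, each drew 48.4%, 48.9% and 56.1% of their barcodes from 1 well. One of the clusters in that class (cluster 20 of the cells) was led by ADAMTS19 and NRG1 and not by markers of radial glia, and cluster 4 of the nuclei was led by EGR1, FOS and PLK2, immediate-early genes that respond to stress.

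In dividing cells 2 of 43 members were higher, with 2.92% of all genes, and 15 lower, with 10.8%. COL24A1 had 80.2 CPM there and 28.0 elsewhere (2.87-fold), with 4.41, a median of 65.6, and 470 CPM over 30 wells, above the rest in 26. COL9A1 had 44.7 and 21.4 CPM (2.08-fold), and was above the rest in 26 of 30. Cluster 14, a dividing cluster led by SV2C and KANK4, had 137 CPM of COL24A1. Without it the folds were 1.71 and 1.88, so neither gene was called. For COL9A1 this was a small move, from 2.08 to 1.88, across the limit of 2. In dividing nuclei 1 of 38 was higher, with 4.53%, and 15 lower, with 14.5%. It was again COL9A1, at 76.4 against 30.9 CPM (2.47-fold), above the rest in 12 of 12 wells.

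By count, though not by share (6 of 8 in Cajal-Retzius-like nuclei), excitatory neuron-like barcodes had the most collagens below the rest among the named types. In the cells 19 of 43 members were lower, with 10.4% of all genes, and 0 higher, with 3.64%. In the nuclei 16 of 28 were lower, with 17.7%, and 1 higher, with 5.26%. COL4A5 was at 0.173 of the other cells and 0.0881 of the other nuclei, COL4A6 at 0.208 and 0.0980, and COL11A1 at 0.305 and 0.150. The exception was COL16A1, a fibril-associated chain, at 36.7 against 13.7 CPM in the nuclei (2.68-fold, above the rest in 12 of 12 wells) and 29.4 CPM in the cells (1.64-fold, above the rest in 14 of 23). COL25A1, a transmembrane collagen first found in amyloid plaques of the brain, reached 42.7 CPM in these cells (1.89-fold) and 18.4 CPM in the nuclei (0.925-fold). COL19A1, known from subsets of neurons, was nearly level, at 77.3 CPM in these cells (1.10-fold) and 49.6 CPM in the nuclei (1.29-fold).

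Of the other named types, the intermediate progenitor-like, glycolytic-like and Cajal-Retzius-like barcodes had 1 member higher in all. In intermediate progenitor-like cells 1 of 41 was, with 2.37% of all genes, and 16 were lower, with 12.2%. The 1 was COL3A1 (2.53-fold), a fibrillar chain of soft tissue, and 26 of its 37 counts came from 1 barcode, and it had enough counts only by being high there. Among genes with at least 20 counts expected 0 of 40 members were higher, with 1.9% of all such genes. Without the 7 cells richest in COL1A1, COL1A2, COL3A1 and COL6A3, described further on, the fold of COL3A1 was 1.28. Among glycolytic-like barcodes 0 of 43 in the cells and 0 of 22 in the nuclei were higher, with 1.02% and 9.02% of all genes, and 13 and 9 were lower, with 4.98% and 13.2%. Among the Cajal-Retzius-like nuclei 0 of 8 were higher, with 7.69%, and 6 lower, with 10.9%. In the cells, unnamed cluster 18 (175 barcodes, led by RELN) had the highest Cajal-Retzius marker sum, 2464 CPM against 99.1 in all cells. It held 1002 CPM of collagen. Across all named types 20 of 43 members were higher in at least 1 type of the cells and 19 of 40 in the nuclei, with 21.2% and 30.2% of all genes. Among genes with at least 20 counts expected these were 12 of 43 and 11 of 38, with 15.1% and 20.7% of all such genes.

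A cluster of 99 cells with the pigment cell markers TYR, PMEL and MITF had high levels of several collagens, though 75.8% of its cells came from 1 well. Of the 21 members with enough counts there, 11 were higher, with 12.3% of all genes, and 3 lower, with 12.1%, and 9 of the 21 passed only through their own counts in the cluster, so their folds are a description. Among genes with at least 20 counts expected, 2 of 12 members were higher (COL5A1 and COL18A1), with 5.31% of all such genes. COL6A3, the long chain of beaded filaments, had 141 CPM (49.5-fold, 39.7 to 61.3), COL25A1 269 CPM (11.4-fold), COL9A1 181 CPM (7.64-fold) and COL5A1 230 CPM (4.28-fold). COL8A1 (15.1-fold), COL1A2 (11.97-fold) and COL9A2 (7.44-fold) were higher at 51.9, 47.9 and 87.9 CPM. The 9 markers of fibroblasts or mesenchyme summed to 317 CPM there, against 44.4 in all cells, with PRRX1 highest at 95.9 and OGN at 0, and the pericyte markers to 293 CPM, against 117. Their part in the collagen levels was not tested. The cluster was led by BMP3, FZD10 and DCT, and no such cluster was named in the nuclei.

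The fibrillar genes of connective tissue were low in both libraries, and in the nuclei a few barcodes held much of them. COL1A1 and COL1A2, the chains of type I collagen, stood at 4.49 and 4.21 CPM in the cells and 3.76 and 3.19 CPM in the nuclei, and COL3A1 at 1.65 and 2.18 CPM. Summed over COL1A1, COL1A2, COL3A1 and the beaded filament chain COL6A3, here called the 4 connective tissue chains, 7 cells (0.0347%) and 11 nuclei (0.0773%) had at least 20 counts. In the nuclei these 11 held 84.1% of all COL3A1 counts, 67.9% of COL6A3, 66.4% of COL1A1 and 43.5% of COL1A2, from 0.106% of the transcripts. In the cells the 7 held 45.6% of COL3A1, 17.03% of COL6A3, 16.7% of COL1A1 and 7.99% of COL1A2, and in 3 of them COL6A3 made up 21 of 24, 19 of 22 and 19 of 20 counts. COL1A1 was seen in 372 cells. The sums of the 11 nuclei ran from 23 to 111, while the highest sum in any other nucleus was 8. In the cells they ran from 20 to 222, and the highest sum outside was 18, so that the limit fell in a gap in the nuclei and in a continuum in the cells. Of the 11 nuclei, 10 lay in the RSPO2-led cluster 12, and they came from 6 wells.

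These nuclei also carried genes of mesenchyme that played no part in their choice. The 9 mesenchymal markers summed to 2271 CPM in the 11 nuclei and 38.2 CPM in the others, 59.4-fold higher, and each of the 11 had at least 6 such counts. Over all of cluster 12, where 10 of the 11 lay, the same sum was 167 CPM. PRRX1, a transcription factor of limb and head mesenchyme, gave 123 of the 173 marker counts of the 11 nuclei (47.7% of its counts in the nuclei) and had 135 in the others. FOXC1 and DCN had 2 and 4 counts in the 11 nuclei, and FOXD1 none. In the 7 cells the same markers were 5.57-fold higher (245 against 44.1 CPM), with 0 to 17 counts each, of which PRRX1 gave 20, DCN 15, PDGFRA 12, PDGFRB 11 and TWIST1 4 of 62, while LUM, FOXC1, FOXD1 and OGN had none. Of the 7 cells, 4 lay in cluster 4 and 1 in the pigment cell cluster, where the sums over all barcodes were 193 and 317 CPM. The 7 had a median of 28133 transcripts, against 2615 over all cells, and the limit of 20 counts was not scaled by depth. The part of depth was not tested. The richest cell, with 222 counts of the 4 chains among 106951 transcripts, lay in an unnamed cluster. None of the 7 cells and 11 nuclei was among the barcodes with the highest doublet scores, although the doublet caller itself marked 0 barcodes and was taken as failed.

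**Figure D5:**
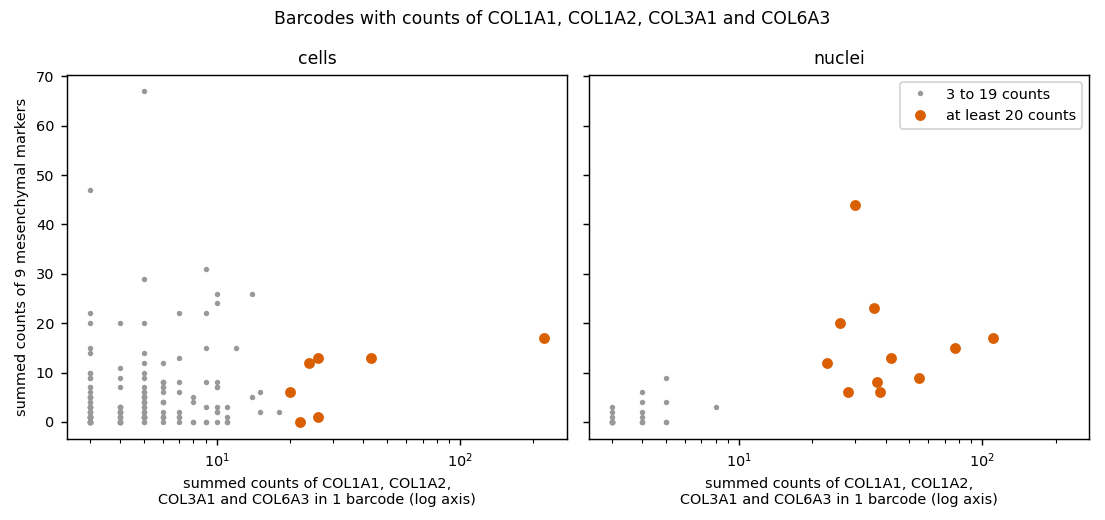
Each point is 1 barcode with at least 3 summed counts of COL1A1, COL1A2, COL3A1 and COL6A3 (horizontal, log axis), against its summed counts of 9 mesenchymal markers (vertical), for cells (left) and nuclei (right). The 11 nuclei with at least 20 counts (orange) lie apart from the other nuclei, which reach 8, whereas the 7 cells adjoin cells that reach 18.

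Cells and nuclei were set side by side, although compartment, days, conditions and library cannot be told apart between them. No member was higher in the nuclei by a fold of 2, with 0.48% of all genes, and 7 of 43 were higher in the cells, with 38.2% of all genes. The median log2 ratio of nuclei over cells was -0.26 for the members and -0.66 for all genes. The 7 were COL17A1 (ratio 0.225), COL6A5 (0.271), COL14A1 (0.280), COL20A1 (0.304), COL8A2 (0.348), COL5A3 (0.467) and COL9A2 (0.487), all of low level. The members with the highest ratios were COL24A1 (1.59), COL4A5 (1.59), COL4A6 (1.58) and COL9A1 (1.53). Over the 43 genes the log2 ratio had a Spearman rho of 0.30 with gene span and 0.12 with exon length, given as a description over genes of the same 2 libraries. Without the barcodes rich in the 4 connective tissue chains, 12 of 43 members were higher in the cells, again with 38.2% of all genes. These barcodes were chosen by their counts of 4 members and held a larger part of those counts in the nuclei, so the change was partly set by the choice. Outside them COL1A1, COL1A2, COL3A1 and COL6A3 stood at 1.26, 1.80, 0.347 and 0.597 CPM in the nuclei. In the cells they stood at 3.75, 3.88, 0.898 and 2.92 CPM.

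Among 75 genes that make, cut, bind or accompany collagens, 21 in the cells and 18 in the nuclei were higher in choroid plexus-like barcodes, with 12.6% and 15.1% of all tested genes, and 6 and 12 were lower, with 12.3% and 19.6%. Too few counts for a call were had by 8 and 20 of the 75. Many of these genes were among those that built the clusters, so these values are a description. Of the 14 basement membrane partners 6 were higher in each library, and of the 9 fibril partners 5 in the cells and 4 in the nuclei. NID2 (nidogen 2, which links laminin to type IV collagen) was 13.3-fold higher in the cells and 20.4-fold in the nuclei, and LAMB1 (a laminin chain) 10.1- and 11.8-fold. LAMB1 was also among the 10 leading genes of the RSPO2-led cluster 12 of the nuclei. Folds of the 75 genes were taken for named types only, so whether they were particular to the choroid plexus-like barcodes was not tested. TLL1, a protease that trims procollagen, was 7.56- and 11.4-fold higher. BGN (biglycan, 13.0-fold) and TIMP3, an inhibitor of collagenases (5.54-fold), were among the first 5 in the cells, and DDR2, a collagen receptor (7.25-fold), and LAMA2 (6.74-fold) among those in the nuclei. Of the 21 and 18, BGN, TIMP1 and LOX in the cells and NID2 in the nuclei had enough counts only through this type. Lower there were ITGA2, a chain of a collagen-binding integrin (0.174 and 0.0751 of the others), and LAMA1 (0.365 and 0.232). Outside the choroid plexus, P4HA1, a subunit of the enzyme that hydroxylates prolines in collagen, was 2.55-fold higher in glycolytic-like cells and 3.23-fold in such nuclei. ADAMTS3, which cleaves procollagen, was 4.58- and 2.65-fold higher in excitatory neuron-like barcodes, where 23 and 27 of the 75 genes were lower, with 10.4% and 17.7% of all tested genes, and 7 and 18 had too few counts.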

How the data were processed

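Split-seq libraries of single cells and of nuclei were analysed, each as 1 sample. The authors demultiplexed reads into 8 sub-libraries of cells and 2 of nuclei with 1 mismatch allowed, processed them against GRCh38 with the Parse Biosciences software, and deposited transcript counts for all barcodes, without normalization or removal of free RNA. Before filtering, the tables held 254967545 and 82339738 transcripts in 1303455 and 197446 barcodes. The kept barcodes were clustered on 2000 variable genes without collagen and mitochondrial genes (30 components, 15 neighbours, Leiden resolution 1, seed 0) with scanpy 1.11.5, igraph 0.11.9 and Python 3.11.15. Clusters were named from at least 3 markers that reached 1.5 times the mean elsewhere and were seen in 25% of its barcodes, a rule set after seeing the clusters. A cluster also stayed unnamed where another list had more genes among its 10 leading genes. Scrublet marked 0 barcodes and was taken as failed, and no barcode was removed as a doublet. Exact intervals used scipy 1.17.1. Coordinates are from GENCODE 44, to which 43 of 43 genes matched by Ensembl identifier, and start regions from RefSeq.

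Depth limits single genes: a median barcode held 2615 or 3890 transcripts. The collagen genes, gene lists and named genes were chosen with earlier results of these data known. Genes were named when among the 20 members with the most counts or counts per kilobase, when higher in a named type, or when chains of one trimer with such a member. Pathway genes were named up to 5 per library, and a few further ones (ITGA2, LAMA1, P4HA1, ADAMTS3) and the barcodes rich in 4 connective tissue chains were chosen after their values were seen. Alternatives changed barcode limits, doublets, scaling, wells, resolution, seed, fold, count minimum, weighting and single clusters.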

Additional observations from a re-analysis of the deposited data

Results flagged for a closer look

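Barcodes of 10 to 100 transcripts, which enter none of the comparisons, held summed collagen at 2011.95 CPM in the cells and 2433.15 in the nuclei, above the limit that a count of 0 allows. The levels in the kept barcodes were 1904 and 2494. For COL4A5 the same barcodes had 560 CPM in the cells and 830 in the nuclei, compared with 535 and 848 in the kept barcodes, and for COL21A1 26.9 and 30.2, compared with 23.7 and 25.8. COL6A5 in the nuclei had 4.28 there and 0.554 in kept barcodes. The part of free RNA in the levels by type was not tested.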

How the results depend on the processing

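Wells, clusters and libraries hold no known replicates, so no result has a replicate error, and counting intervals understate it. No paired analysis was possible because each library is 1 sample and no test was made. The summed collagen level of the cells (1904 CPM) was 1874 at a mitochondrial limit of 10%, 1916 without the highest doublet scores, 1964 scaled to non-mitochondrial transcripts and 1949 without the well with the most collagen. That of the nuclei (2494) was 2476 and 2461 above 2000 and 5000 transcripts, 2537 without the top well and 2543 with barcodes weighted equally. At Leiden resolution 0.5 the choroid plexus-like type was a wider group, as described above. Its cells had 21 members higher and 3 lower, its nuclei 3 lower, and both together 18 higher and 3 lower (10.7% and 6.0% of all genes). At that resolution dividing cells had 0 higher and 8 lower (1.94% and 6.21%), and radial glia-like cells 1 higher (1.24%). At a fold of 3, members lower were 3 in choroid plexus-like barcodes of both libraries together (4.6% of all genes), 3 in choroid plexus-like (4.64%), 10 in excitatory neuron-like (4.9%), 7 in dividing (3.72%) and 3 in radial glia-like cells (1.92%) and 7 in radial glia-like nuclei (6.86%). At that fold 0 were higher in dividing cells (1.23%) and in dividing, radial glia-like and excitatory neuron-like nuclei (1.88%, 0.926% and 1.59%), 10 in at least 1 named type of the nuclei (13.8%), and 4 in cells over nuclei (21.9%), and 11 pathway genes were higher in choroid plexus-like nuclei (10.1%). Excitatory neuron-like nuclei had 2 members higher at resolution 2 and with equal weighting (6.76% and 5.63%), such cells 1 without cluster 10 among the others (4.32%), and dividing nuclei 2 without the count minimum (8.1%). Dividing cells had 1 higher with equal weighting (2.65%) and 0 without cluster 14 (2.52%). Without the barcodes rich in the 4 connective tissue chains 12 members were higher in the cells than in the nuclei (38.2%), a count partly set by choosing these barcodes through 4 of the members. Among genes with at least 20 expected counts, 6 members were higher in choroid plexus-like nuclei (9.16%), 4 in such barcodes of both libraries (6.88%), and 12 and 11 in at least 1 named type of the cells and the nuclei (15.1% and 20.7%). Equal weighting, single clusters, rich barcodes and expected counts were added after seeing the data. Of 535 values of 41 named folds under alternatives, 438 stayed within their counting interval, 97 moved beyond it, and 0 of the called folds turned direction. Part of the 438 could not move. The fold of 3 and the changed count minima alter only the call. Taking 1 cluster out of its type leaves the folds of other types as they were. The 438 is therefore no measure of stability. The cause of each change was not tested beyond the setting itself.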

Other observations

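An unnamed cluster of 978 cells (cluster 10), led by DOCK2, RPH3A and ALDH1A2, held 2069 CPM of collagen. In it 22 of the 42 members with enough counts were higher, with 31% of all genes, and among genes with at least 20 counts expected 13 of 33, with 11%. Endothelial markers summed to 117 CPM there, against 31.9 in all cells, microglia markers to 34.0, against 9.12, and surface epithelium markers to 76.6, against 23.5, and their part was not tested. COL3A1 was 23.8-fold higher there, with 92 of its 125 counts in 1 barcode, and 7.92-fold without the barcodes rich in COL1A1, COL1A2, COL3A1 and COL6A3. COL13A1, a transmembrane chain of the neuromuscular junction, was 12.2-fold higher (30.1 CPM), COL6A5 11.5-fold, COL15A1, a basement membrane-associated chain, 7.38-fold, COL22A1 6.45-fold and COL14A1 6.09-fold. Of these 6, COL3A1, COL13A1, COL6A5 and COL15A1 had enough counts only through this cluster. Unnamed cluster 6 of the nuclei, 292 barcodes led by PAX3 and NTRK2, had COL23A1, a transmembrane chain, 13.99-fold higher (130 CPM) and COL12A1, which binds fibrils, 9.13-fold. Both had enough counts only through this cluster, where 4 of 19 members were higher, with 5.07% of all genes, and 1 of 16 among genes with at least 20 counts expected (COL27A1, 2.56-fold), with 2.74%. Glycolytic markers summed to 1599 CPM there, against 535 in all nuclei, outer radial glia markers to 509, against 114, and neural crest or Schwann markers to 29.96, against 12.7, and their part was not tested. The RSPO2-led clusters had COL1A1 at 9.99-fold in the cells and 33.9-fold in the nuclei, and COL1A2 at 15.6- and 29.9-fold, where the nuclei values had enough counts only through the cluster. In the nuclei 10 of 922 barcodes held 177 of the 210 COL1A1 counts and 91 of the 173 COL1A2 counts of the cluster, and without the rich barcodes the folds were 5.67 and 17.02, compared with 11.4 and 16.1 in the cells. In the RSPO2-led clusters of the cells and nuclei, fibroblast or mesenchyme markers summed to 193 and 167 CPM, against 44.4 and 40.6 in all barcodes. Pericyte markers summed to 255 and 199 CPM, against 117 and 138, and pigment epithelium or retina markers to 276 and 348, against 79.3 and 116. Endothelial markers summed to 86.0 and 27.1 CPM, against 31.9 and 10.5, while radial glia and excitatory neuron markers were below the library level. Their part was not tested. The clusters of this section were singled out after their values were seen.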
